A study of Mus musculus with 12 samples.

Results

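The genes described here are 10 that mark the oligodendrocyte lineage from the precursor to the newly formed cell: the transcription factors Olig1, Olig2, Sox10, Myrf and Nkx2-2, the precursor surface proteins Pdgfra and Cspg4, and Gpr17, Enpp6 and Bcas1 of the committed and newly formed stages. They were chosen by symbol, with earlier results of these data known, and all 10 were found by Ensembl identifier among the 38924 genes of the tables. Poly(A) RNA of whole brain was sequenced from mice aged 6 weeks, with 3 mice and 3 libraries per genotype. Mice were homozygous for the h1 allele of Rorb on C57BL/6J, for h2 on B6(Cg)-Tyrc-2J/J or for h4 on B6.129S7-Il1r1tm1Imx/J, and were set against wild type (WT) mice on C57BL/6J. Allele and background strain therefore cannot be told apart for h2 and h4. The alleles are called high stepper after the gait they cause, and the labels name neither litters nor cages.

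Oligodendrocytes make the myelin of the brain and arise from precursor cells that divide and migrate under the control of platelet-derived growth factor. Precursors leave the cell cycle, pass through a short-lived committed stage and then switch on myelin genes. Olig2 and Sox10 act in most cells of the lineage, whereas Myrf is switched on as cells differentiate and drives the myelin genes. Rorb encodes the orphan nuclear receptor RORβ, known mainly from neurons.

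Olig2 and Pdgfra were both lower in h2 and in h4 brains than in h1 brains, and their promoter windows are shown for that reason. Each window of 300 bases spans the RefSeq gene start in GRCm38.p6, on the plus strand, at chr16:91225300-91225599 for Olig2 and at chr5:75152001-75152300 for Pdgfra. Capitals mark matches, on either strand, to CANNTG (the E-box core that basic helix-loop-helix factors such as OLIG2 bind), ACAAAG (a core bound by SOX factors) or AGGTCA (the half-site of ROR receptors).
Olig2: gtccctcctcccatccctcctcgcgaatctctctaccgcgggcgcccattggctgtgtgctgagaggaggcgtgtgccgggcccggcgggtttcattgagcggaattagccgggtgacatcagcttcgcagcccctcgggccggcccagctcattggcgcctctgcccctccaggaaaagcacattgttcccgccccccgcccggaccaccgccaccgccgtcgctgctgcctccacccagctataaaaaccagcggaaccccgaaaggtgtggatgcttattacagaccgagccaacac
Pdgfra: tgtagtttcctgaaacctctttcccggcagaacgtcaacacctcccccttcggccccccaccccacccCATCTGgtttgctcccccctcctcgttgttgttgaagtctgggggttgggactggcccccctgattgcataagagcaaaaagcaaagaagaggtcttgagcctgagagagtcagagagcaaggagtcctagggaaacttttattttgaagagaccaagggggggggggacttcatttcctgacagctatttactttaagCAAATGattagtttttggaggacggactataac
The Pdgfra window held 2 CANNTG matches and neither of the other motifs, and the Olig2 window held none of the 3. Of 32851 mouse promoter windows of the same length, 72.3% held CANNTG, 18.7% held ACAAAG and 16.3% held AGGTCA. The RefSeq table also matched Nkx2-2, whose window held 3 CANNTG matches, and Cspg4 and Enpp6, whose windows held no match. A match is a description of these letters, and a window without one says nothing about binding elsewhere.

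The libraries held 14513825 to 24694178 expected counts, and levels are given as CPM, counts scaled to the library total, on which 3 counts corresponded to 0.121 to 0.207 CPM. Rorb itself measured 23.2, 33.1 and 22.6 CPM in h1, 31.1, 31.0 and 22.6 CPM in h2, 9.11, 8.65 and 8.66 CPM in h4, and 18.4, 16.3 and 17.1 CPM in WT, so all h4 libraries were lower than those of WT and all h1 and h2 libraries were higher. Xist, the RNA that coats the inactive X chromosome, was high (783 to 915 CPM) in h1 replicate 1, h2 replicate 2, h4 replicates 1 and 3 and all 3 WT libraries, and was at most 1.34 CPM in the other 5 libraries, all of them mutant. Ddx3y, a gene of the Y chromosome, measured 96.1 to 104 CPM in those 5 libraries and at most 0.149 CPM in the libraries with high Xist. The labels give no sex. By Xist and Ddx3y the 5 libraries were from males and the others from females. All WT libraries were thus from females, while each mutant genotype held both sexes, and Xist status stands for sex here. Xist status was therefore entered as a covariate in an alternative fit, and its values stand beside the calls on single genes that ended in it. In RNA of whole brain, fewer cells of a type and less RNA per cell cannot be told apart.

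All 10 genes passed the filter on low counts and were tested with edgeR among 16493 genes. In h1 against WT, 4 of the 10 rose and none fell, where 0.625% of all genes tested were called and 0.418% were called higher. These were Olig1, Olig2, Myrf and Bcas1, and the median log2 fold change of the 10 genes was 0.12, beside 0.00 for all genes. The libraries of h1 and WT did not overlap for 5 of the 10, beside 14.9% of all genes. In h2 against WT, only Bcas1 of the 10 rose and none fell, with 0.679% of all genes called and 0.34% called higher. The median was 0.08, and 4 of the 10 did not overlap, beside 15.2% of all genes. In h4 against WT none of the 10 was called by edgeR, although 4.55% of all genes were, 1.64% higher and 2.91% lower. For h4 the median was 0.05, 2 of the 10 did not overlap (beside 21.3% of all genes), 2 had an unadjusted p under 0.05, and DESeq2 called 1. These 3 comparisons share the same WT libraries. Because the 10 genes were chosen with earlier results of these data known, the shares of all genes stand beside them as a description only. With the mean of h1, h2 and h4 set against WT, Bcas1 alone was called among the 10, beside 1.1% of all genes (0.485% higher and 0.612% lower).

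**Figure D1:**
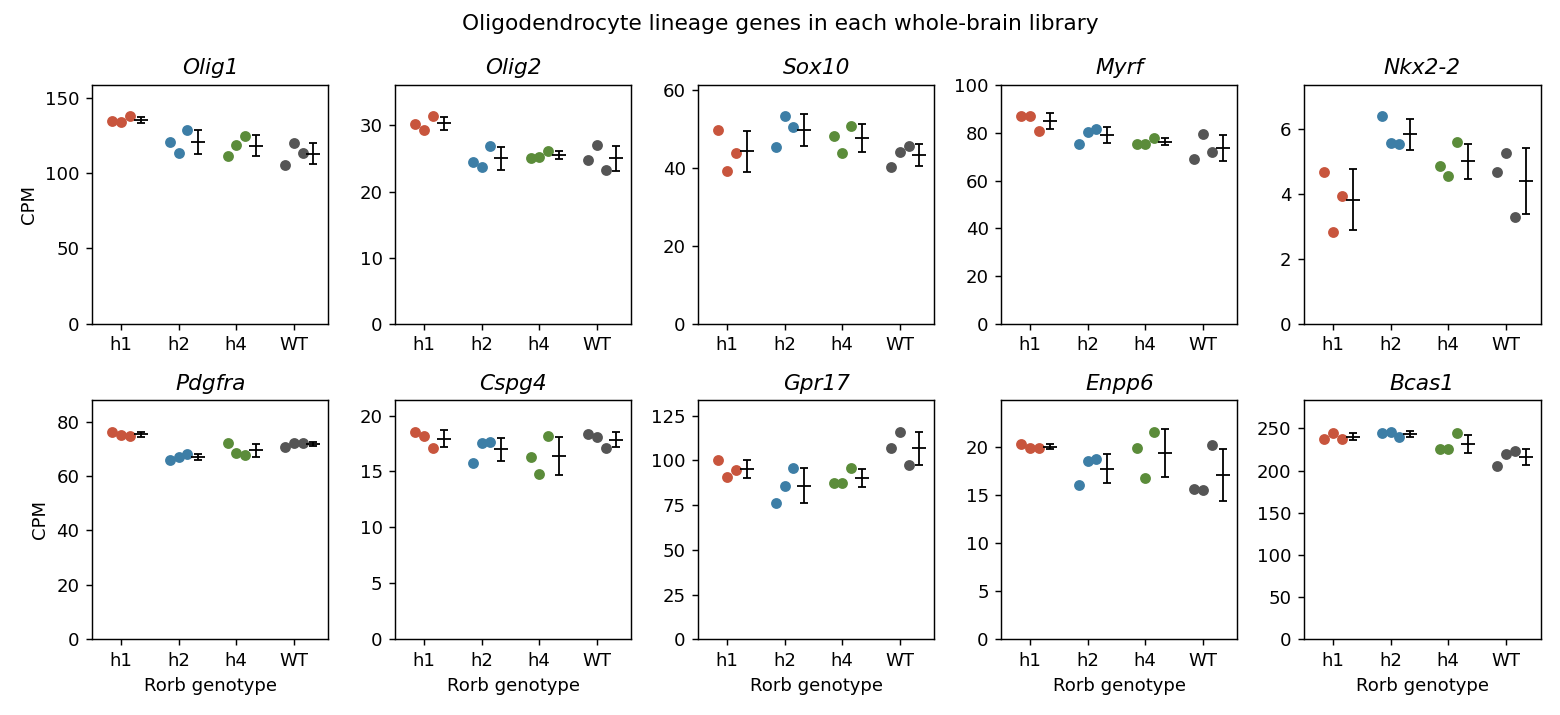
Level of each of the 10 genes in every whole-brain library, in CPM on axes that start at 0, for h1, h2, h4 and WT (points, 3 libraries each; bars, mean ± SD). The h1 points of Olig1, Olig2 and Myrf lie above all WT points, and those of Bcas1 lie above WT in all 3 mutants.

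Levels per transcript length differed widely among the 10 genes. By the median of the deposited TPM over the 12 libraries, Bcas1 was highest at 210.4, followed by Olig1 at 114.5. Gpr17 at 35.6, Sox10 at 33.7 and Myrf at 27.5 formed a middle range, Olig2 at 21.6 and Pdgfra at 21.0 followed, and Enpp6 was at 14.8. Nkx2-2 at 5.65 and Cspg4 at 4.25 TPM were lowest. The ranges over libraries of neighbours in this order overlapped, except between Bcas1 (188.3 to 223.6), Olig1 (103.6 to 131.1) and Gpr17 (27.8 to 44.4), and between Pdgfra (18.9 to 22.6), Enpp6 (13.1 to 18.7) and Nkx2-2 (3.29 to 7.89). Within a gene, the highest library exceeded the lowest by 1.16-fold for Pdgfra to 1.53-fold for Gpr17 on the CPM scale, and by 2.27-fold for Nkx2-2, the gene with the fewest counts.

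Olig1 and Olig2 encode related basic helix-loop-helix factors, of which Olig2 specifies the lineage and Olig1 acts in maturation and repair of myelin. The genes are neighbours on chromosome 16, both on the plus strand (Olig2 at chr16:91225457-91228677, Olig1 at chr16:91269772-91271933 in GRCm38), with 41094 bases between them. Both rose in h1 and were not called in h2 or h4 against WT. Olig1 measured 135, 134 and 138 CPM in h1, 121, 113 and 129 CPM in h2, 112, 119 and 125 CPM in h4, and 106, 120.2 and 113 CPM in WT. Every h1 library lay above every library of the other 3 genotypes, which overlapped one another. Olig1 rose in h1 against WT (log2 fold change 0.27, SE 0.05, edgeR adjusted p = 0.00601), whereas its value was 0.10 in h2 (SE 0.05, adjusted p = 0.454) and 0.06 in h4 (SE 0.05, adjusted p = 0.598). Olig1 in h1 was called in 10 of the 12 fits that left out 1 library. The call ended without h1 replicate 2 or WT replicate 1, where adjusted p reached 0.0599 and log2 fold changes spanned 0.23 to 0.32 over the leave-outs.

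Olig2 measured 30.2, 29.4 and 31.4 CPM in h1, 24.5, 23.6 and 26.9 CPM in h2, 25.0, 25.3 and 26.1 CPM in h4, and 24.8, 27.0 and 23.3 CPM in WT. All 3 h1 libraries again lay above all 9 others, while all h2 and h4 libraries lay within the WT range. Olig2 rose in h1 against WT (log2 fold change 0.29, SE 0.06, adjusted p = 0.0272), beside 0.00 (SE 0.07, adjusted p = 0.999) in h2 and 0.02 (SE 0.07, adjusted p = 0.937) in h4. The Olig2 call ended without any 1 of the h1 libraries, WT replicate 1 or WT replicate 3, where log2 fold changes spanned 0.23 to 0.34 and adjusted p reached 0.165.

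Myrf, the membrane-bound factor that drives myelin genes, is transcribed from the minus strand at chr19:10208272-10240748, 8.69 Mb from Rorb on the same chromosome. Its level was 87.1, 87.0 and 81.0 CPM in h1, 75.2, 80.5 and 81.8 CPM in h2, 75.5, 75.4 and 78.0 CPM in h4, and 69.1, 79.7 and 72.2 CPM in WT. The h1 libraries stood above those of WT and h4, and overlapped those of h2. Myrf rose in h1 against WT (log2 fold change 0.22, SE 0.05, adjusted p = 0.0244), a call that ended without h1 replicate 1 or 2 or WT replicate 1 or 3 (0.17 to 0.28, adjusted p at most 0.248). Its values were 0.11 in h2 (SE 0.05, adjusted p = 0.377) and 0.04 in h4 (SE 0.05, adjusted p = 0.719).

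Sox10, which acts throughout the lineage and with Myrf on myelin genes, was not called in any mutant against WT. Its level was 49.6, 39.2 and 43.8 CPM in h1, 45.3, 53.3 and 50.5 CPM in h2, 48.2, 43.7 and 50.8 CPM in h4, and 40.3, 44.0 and 45.6 CPM in WT. The groups overlapped, and the log2 fold changes against WT were 0.04 (SE 0.08) in h1, 0.21 (SE 0.08) in h2 and 0.13 (SE 0.08) in h4, with adjusted p of 0.93, 0.328 and 0.459. In h1, h2 and h4 alike, the library or libraries with high Xist had the highest Sox10 of their genotype: h1 replicate 1, h2 replicate 2, and h4 replicates 1 and 3. With Xist status as a covariate, Sox10 was called higher in h2 (0.33, adjusted p = 0.0112) and in the mean of the mutants (0.23, adjusted p = 0.0479), and not in h1 (0.16, adjusted p = 0.545) or h4 (0.19, adjusted p = 0.0692). Among the 7 libraries with high Xist alone, an alternative chosen after the data were seen, the mean of the mutants was also called (0.23, adjusted p = 0.0373).

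Nkx2-2, a homeodomain factor that times differentiation, was the least precise of the 10 genes. It measured 4.68, 2.81 and 3.93 CPM in h1, 6.39, 5.54 and 5.53 CPM in h2, 4.86, 4.53 and 5.60 CPM in h4, and 4.66, 5.24 and 3.27 CPM in WT. All 3 h2 libraries lay above all h1 and WT libraries. Its log2 fold changes against WT were -0.20 (SE 0.17) in h1, 0.39 (SE 0.16) in h2 and 0.17 (SE 0.17) in h4, with adjusted p of 0.768, 0.333 and 0.657. The antisense gene Nkx2-2os shares 278 exon bases with it and averaged 1.17 CPM, and the library kit keeps no strand, so their reads cannot be told apart there. The transcript length that RSEM estimated for Nkx2-2 also varied, at 1739 ± 121 bases in h1, 1920 ± 131 bases in h2, 1597 ± 217 bases in h4 and 1937 ± 77.8 bases in WT (SD, n = 3). Exact 2-sided permutation p of these lengths against WT were 0.1 for h1, 0.9 for h2 and 0.1 for h4, where 0.1 is the smallest that 3 against 3 libraries allow.

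**Figure D2:**
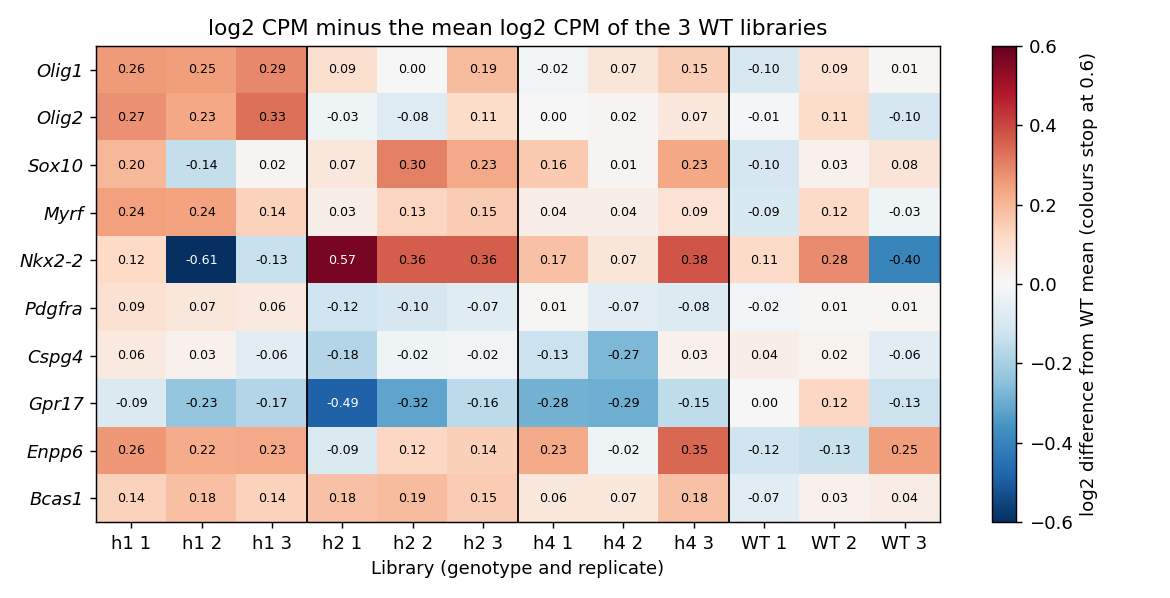
Level of each gene (down the page) in each library (across) as log2 CPM minus the mean log2 CPM of the 3 WT libraries; red is higher and blue lower, and colours stop at 0.6. Olig1 and Olig2 are red in all h1 libraries, Gpr17 is blue in all 9 mutant libraries, and Nkx2-2 spans -0.61 to 0.57.

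Neither of the surface proteins of precursors was called against WT. Pdgfra, the growth factor receptor that sustains precursors, lies on the plus strand at chr5:75152292-75198215. It measured 76.4, 75.0 and 74.7 CPM in h1, 65.9, 66.9 and 68.2 CPM in h2, 72.1, 68.4 and 67.8 CPM in h4, and 70.9, 72.0 and 72.1 CPM in WT. The h1 libraries were above WT and the h2 libraries below it, without overlap in either case, but the differences were small. Log2 fold changes against WT were 0.08 (SE 0.04) in h1, -0.10 (SE 0.04) in h2 and -0.05 (SE 0.04) in h4, and none was called (adjusted p of 0.502, 0.336 and 0.535). Cspg4, which encodes the NG2 proteoglycan of precursors and of pericytes, measured 18.6, 18.1 and 17.1 CPM in h1, 15.8, 17.5 and 17.6 CPM in h2, 16.3, 14.8 and 18.2 CPM in h4, and 18.3, 18.1 and 17.1 CPM in WT. Its groups overlapped in all 3 comparisons with WT, with log2 fold changes of 0.02, -0.07 and -0.13 in h1, h2 and h4 (SE 0.08 each).

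Among the genes of the committed and newly formed stages, Bcas1 rose in h1 and h2, and Gpr17 and Enpp6 were not called by edgeR against WT. Bcas1, a marker of newly formed and myelinating oligodendrocytes, lies on the minus strand at chr2:170346991-170427845. Its level was 238, 245 and 238 CPM in h1, 244, 246 and 240.1 CPM in h2, 226, 226 and 244 CPM in h4, and 206, 220.0 and 223 CPM in WT. All 9 mutant libraries lay above all 3 WT libraries, which was so for 1.83% of all genes in either direction. Bcas1 rose in h1 (log2 fold change 0.16, SE 0.04, adjusted p = 0.0428), in h2 (0.17, SE 0.04, adjusted p = 0.028) and in the mean of the mutants (0.14, SE 0.03, adjusted p = 0.0219). In h4 it was 0.09 (SE 0.04, adjusted p = 0.189). The h1 call was kept in 4 of 12 leave-outs and ended without any 1 of the h1 libraries, h2 replicate 2, h4 replicates 1 or 3, or WT replicates 1 or 2 (0.13 to 0.18, adjusted p at most 0.32). The h2 call ended without h2 replicate 1 or 2 or WT replicate 1 or 2 (0.14 to 0.19, adjusted p at most 0.257). The call on the mean ended without h1 replicate 2, h4 replicate 3, or WT replicate 1 or 2 (0.11 to 0.16, adjusted p at most 0.347).

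Gpr17 encodes a receptor that is present for a short time in committed precursors and holds back their maturation. Its level was 100.3, 90.7 and 94.4 CPM in h1, 76.1, 85.5 and 95.7 CPM in h2, 87.6, 87.1 and 95.9 CPM in h4, and 106.9, 116.1 and 97.5 CPM in WT. The h2 and h4 libraries all lay below all WT libraries, and 1 of the h1 libraries overlapped WT. Log2 fold changes against WT were -0.16 in h1 (adjusted p = 0.566), -0.31 in h2 (adjusted p = 0.143) and -0.25 in h4 (adjusted p = 0.122), each with an SE of 0.08, and edgeR called none of them. DESeq2 called Gpr17 lower in h2 (-0.32, adjusted p = 0.00205), in h4 (-0.26, adjusted p = 0.0053) and in the mean of the mutants (-0.24, adjusted p = 0.00191). In edgeR it was called lower in h2 when h2 replicate 3 or WT replicate 3 was left out, and in h4 when h2 replicate 1, h2 replicate 3 or WT replicate 3 was left out, with adjusted p down to 0.0199 and 0.0304. Gpr17 shares 188 exon bases with Lims2, a gene on the opposite strand that averaged 11.7 CPM, and reads of that stretch cannot be told apart. Enpp6, an enzyme of choline metabolism switched on in newly forming oligodendrocytes, measured 20.3, 19.8 and 19.9 CPM in h1, 16.0, 18.5 and 18.7 CPM in h2, 19.9, 16.7 and 21.6 CPM in h4, and 15.6, 15.5 and 20.2 CPM in WT. WT replicate 3 lay within the h1 range, and the other 2 WT libraries below it. In h1 the difference was not called (log2 fold change 0.24, SE 0.10, adjusted p = 0.389), but without WT replicate 3 Enpp6 was called higher in h1 (0.37, adjusted p = 0.0457).

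Xist status differed between the mutants and WT. With Xist as a covariate, the log2 fold changes in h1 were 0.23 for Olig1 (adjusted p = 0.0668), 0.26 for Olig2 (0.243), 0.24 for Myrf (0.0668) and 0.17 for Bcas1 (0.111), so their sizes were close to those without the covariate and none was called. With the covariate Bcas1 was 0.18 in h2 (adjusted p = 0.058) and 0.15 in the mean of the mutants (adjusted p = 0.0576), neither of them called. Among the libraries with high Xist alone, which leave h1 with 1 library, the log2 fold changes in h1 were 0.26 for Olig1, 0.27 for Olig2, 0.24 for Myrf and 0.14 for Bcas1. Every WT library had high Xist, so the covariate was estimated from the mutants alone. How much of each difference goes with Xist status was not tested further.

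The mutants were also set directly against each other. In h2 against h1, 2 of the 10 genes, Olig2 and Pdgfra, fell and none rose, where 0.722% of all genes were called and 0.534% were called lower. In h4 against h1, 4 fell and none rose (Olig1, Olig2, Myrf and Pdgfra), where 4.64% of all genes were called, 2.11% higher and 2.53% lower. The median log2 fold change of the 10 genes was -0.13 in h2 against h1 and -0.12 in h4 against h1, beside 0.00 and 0.01 for all genes. The libraries did not overlap for 5 of the 10 in h2 against h1 (15.5% of all genes) and for 4 in h4 against h1 (24.2% of all genes). In h4 against h2 edgeR and DESeq2 called none of the 10, 1 had an unadjusted p under 0.05, and the libraries of all 10 overlapped. Of all genes, edgeR called 3.22% there (1.54% higher and 1.68% lower), and 21.7% did not overlap. These comparisons share libraries with one another and with those against WT.

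Olig2 averaged 25.0 ± 1.71 CPM in h2 and 25.5 ± 0.592 CPM in h4, against 30.3 ± 1.02 CPM in h1 (SD, n = 3). It fell in h2 (log2 fold change -0.29, SE 0.06, adjusted p = 0.0266) and in h4 (-0.27, SE 0.06, adjusted p = 0.0148). Without any 1 of the h1 libraries, or h2 replicate 1 or 2, the h2 call ended (-0.34 to -0.24, adjusted p at most 0.17), and without h1 replicate 3 or h4 replicate 1 the h4 call ended (-0.29 to -0.24, adjusted p at most 0.0792). For Pdgfra the averages were 67.0 ± 1.16 CPM in h2 and 69.4 ± 2.33 CPM in h4, against 75.4 ± 0.882 CPM in h1. The h2 libraries lay below all h1 libraries by more than the spread of either group. Pdgfra fell by -0.18 in h2 (SE 0.04, adjusted p = 0.0269), a call that ended without any 1 of the h1 or h2 libraries (-0.19 to -0.17, adjusted p at most 0.103). In h4 against h1 it fell by -0.14 (SE 0.04, adjusted p = 0.0484), and only the fits without h2 replicate 1 or WT replicate 3 kept that call (-0.17 to -0.12, adjusted p at most 0.194). DESeq2 (adjusted p = 0.0689) and edgeR on only the 2 groups did not call Pdgfra in h4 against h1.

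Olig1 averaged 118 ± 6.79 CPM in h4, against 136 ± 2.02 CPM in h1, and fell in h4 (log2 fold change -0.22, SE 0.05, adjusted p = 0.0111). That call ended without h1 replicate 3 or h4 replicate 1 (-0.25 to -0.18, adjusted p at most 0.0727). In h2 against h1 it was -0.18 (SE 0.05, adjusted p = 0.0867). Myrf averaged 76.3 ± 1.52 CPM in h4, against 85.1 ± 3.48 CPM in h1, and fell by -0.17 (SE 0.05, adjusted p = 0.0319). The Myrf call ended without h1 replicate 1 or 2 or any 1 of the h4 libraries (-0.21 to -0.16, adjusted p at most 0.123). Nkx2-2 had the opposite sign in h2 against h1, with 5.82 ± 0.490 CPM in h2 and 3.81 ± 0.937 CPM in h1 and no overlap, but was not called (0.59, SE 0.16, adjusted p = 0.0975). In these comparisons each side had libraries of high and of low Xist. With the covariate, Olig2 and Pdgfra stayed lower in h2 (adjusted p = 0.0277 and 0.0338) and Olig1, Olig2 and Myrf in h4 (adjusted p = 0.025, 0.0336 and 0.0378), while Pdgfra in h4 had an adjusted p of 0.0689.

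**Figure D3:**
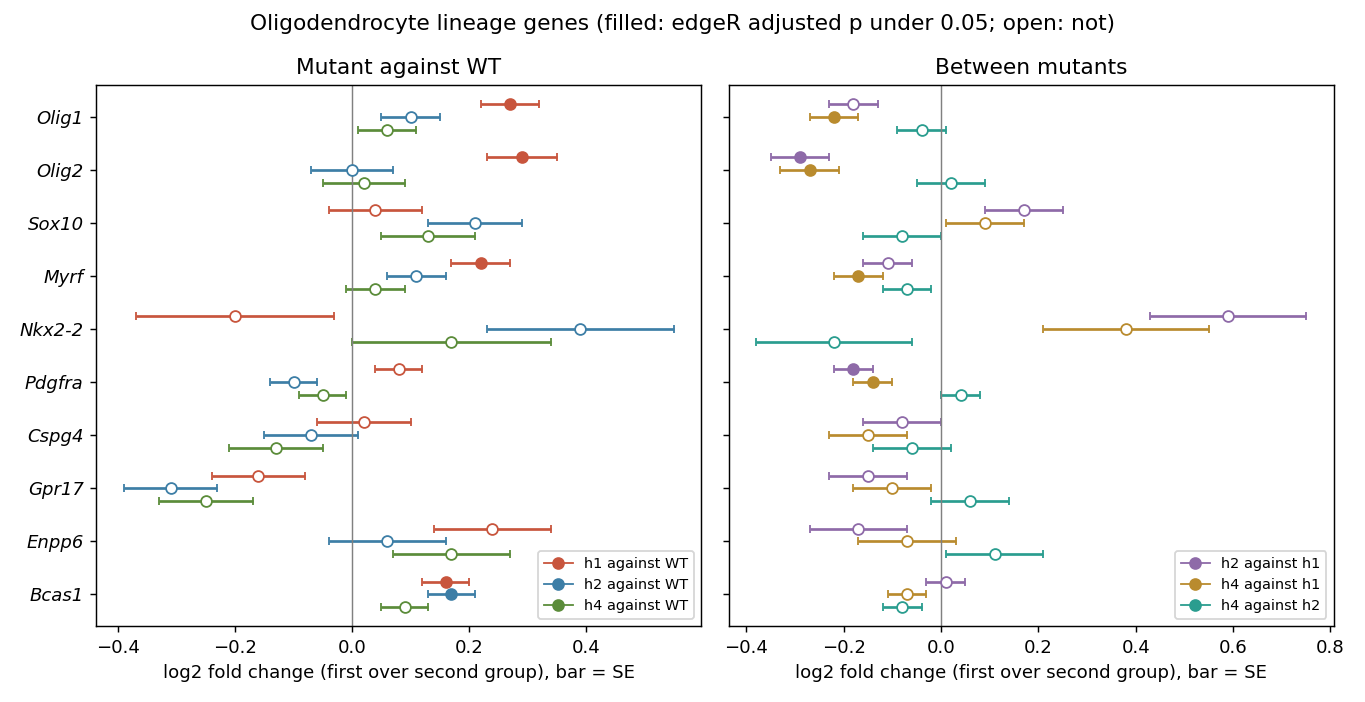
Log2 fold change of each gene (points; bars, SE) for h1, h2 and h4 against WT (left) and for h2 against h1, h4 against h1 and h4 against h2 (right), where filled points have an edgeR adjusted p under 0.05. Filled points lie above 0 against WT (Olig1, Olig2, Myrf and Bcas1) and below 0 between mutants (Olig1, Olig2, Myrf and Pdgfra against h1).

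The other genes of the lineage were described by lists, which were also chosen with earlier results of these data known. Of all genes, 0.418% were called higher in h1, 0.34% in h2 and 1.64% in h4 against WT. Of 24 genes of mature myelin, 14 rose in h1, 6 in h2 and 2 in h4 against WT and none fell, with median log2 fold changes of 0.25, 0.15 and 0.11. Without WT replicate 1, which had the lowest level of Olig1, Myrf and Bcas1 among the WT libraries, these counts were 6, 0 and 1. Without WT replicate 3 they were 15, 14 and 10, and with the Xist covariate 12, 4 and 4. The h1 count was 7 without h1 replicate 2. The h2 count was 0 without h2 replicate 2, 1 without WT replicate 2 and 3 without h2 replicate 3. The h4 count was 1 without WT replicate 2, h1 replicate 3, h2 replicate 2 or h4 replicate 3. Mbp, a main protein of compact myelin, averaged 5175 ± 120 CPM in h1 and 4129 ± 248 CPM in WT and rose by 0.34 (SE 0.04, adjusted p = 0.000681). Mobp, a further myelin protein, rose in h1 by 0.35 (SE 0.04, adjusted p = 0.00053), and both calls were kept in all 12 leave-outs. Against h1, 9 of the 24 fell in h4 and 2 in h2, beside 2.53% and 0.534% of all genes. The h4 count was 2 to 12 over the leave-outs, with 2 without h4 replicate 1 and 4 without h1 replicate 2. The h2 count was 0 without h2 replicate 1, 1 without h1 replicate 1 or 2, h2 replicate 2 or h4 replicate 2, and 4 without WT replicate 1 or 3. Among these were Mobp (-0.27 in h4, adjusted p = 0.000953, and -0.23 in h2, adjusted p = 0.00696, at most 0.0904 without h2 replicate 1) and Mbp in h4 (-0.22, adjusted p = 0.00365).

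The genes of earlier stages formed 2 further lists. Of 20 other precursor genes, edgeR and DESeq2 called none in h1 or h2 against WT, with 1 gene in each at an unadjusted p under 0.05 and medians of 0.00 and -0.04. Beside 2.91% of all genes, 4 of these 20 fell in h4. They were Rlbp1, a retinoid-binding protein also found in other glia (-0.54, SE 0.09, adjusted p = 0.000585, kept in all 12 leave-outs), the adhesion molecule Dscam (-0.20, adjusted p = 0.0151), the proteoglycan enzyme Xylt1 (-0.34, adjusted p = 0.0411) and Luzp2 (-0.19, adjusted p = 0.0423). Without WT replicate 1, WT replicate 2 or h4 replicate 2, Dscam, Xylt1 and Luzp2 were not called (adjusted p at most 0.0994, 0.224 and 0.19). Xylt1 and Luzp2 were also not called without h2 replicate 3 or h4 replicate 1, Xylt1 without h1 replicate 1 and Luzp2 without h4 replicate 3. With the Xist covariate the calls on Xylt1 and Luzp2 ended (adjusted p = 0.0682 and 0.0668). The 2 most abundant of the list, Cntn1 and Ptprz1, had log2 fold changes in h1 of 0.05 (adjusted p = 0.646) and -0.07 (adjusted p = 0.59). Of 20 genes of committed precursors and newly formed oligodendrocytes, none was called in h1 or h2 by edgeR or DESeq2 (2 and 1 at an unadjusted p under 0.05, medians 0.03 and -0.05). In h4 edgeR called 1 of these 20, beside 4.55% of all genes. It was Nfasc, an adhesion molecule of axons and glia, which fell (-0.14, adjusted p = 0.0328, at most 0.162 without h4 replicate 1 or 2 or WT replicate 1 or 2). With the Xist covariate Nfasc was not called (adjusted p = 0.053), and DESeq2 called 2 of the 20 lower in h4.

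**Figure D4:**
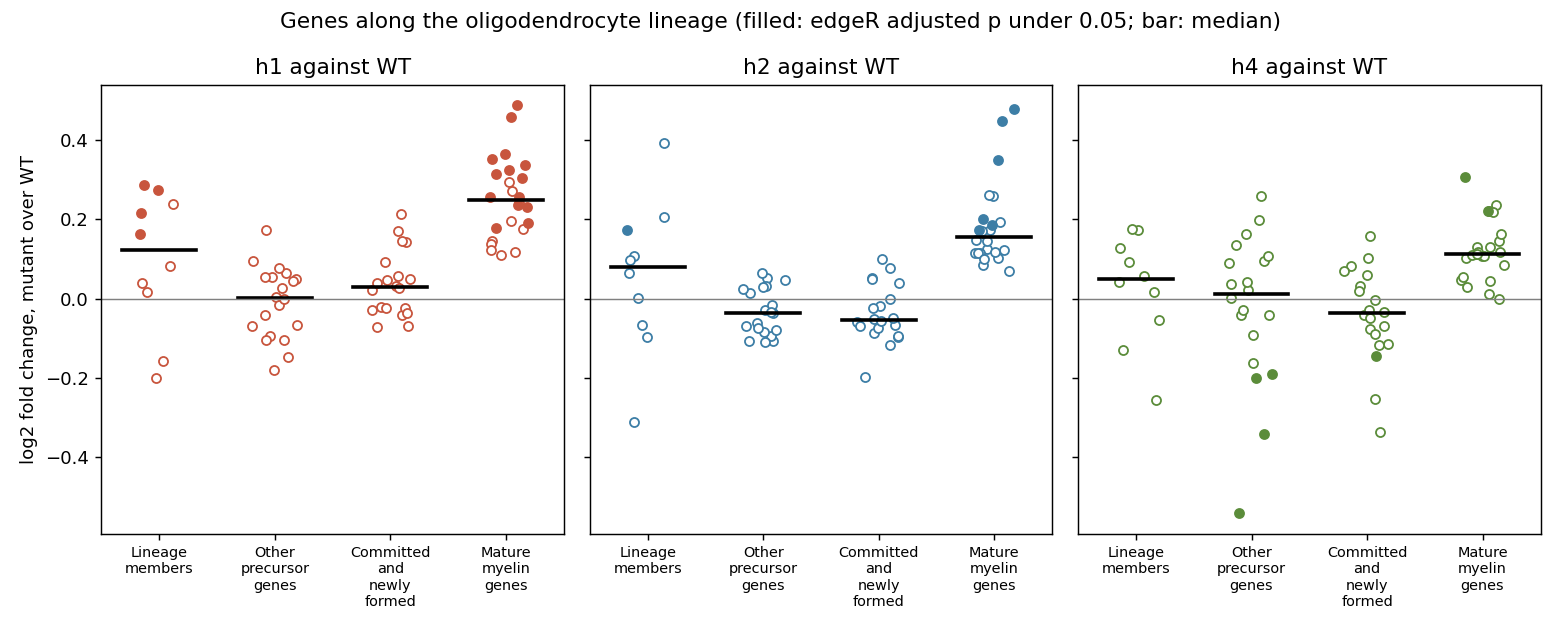
Log2 fold change against WT of the 10 genes, 20 other precursor genes, 20 committed and newly formed stage genes and 24 mature myelin genes (points, 1 gene each; filled, edgeR adjusted p under 0.05; bars, median) in h1, h2 and h4. The medians of the mature myelin genes are 0.25, 0.15 and 0.11, and those of both earlier lists lie between -0.05 and 0.03.

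Of 33 other transcription factors and regulators of the lineage, none was called in h1 or h2 against WT by edgeR or DESeq2, with 4 and 6 at an unadjusted p under 0.05. In h4 the factors Etv5 (-0.28, SE 0.05, adjusted p = 0.0024) and Nfix (-0.38, SE 0.07, adjusted p = 0.0127) fell, and Sox8, the relative of Sox10, rose (0.23, SE 0.07, adjusted p = 0.0499). Of all genes, 1.64% were called higher and 2.91% lower in h4. The Etv5 call was kept in all 12 leave-outs, that of Nfix ended without WT replicate 1 or 2 (adjusted p at most 0.0796), and that of Sox8 was kept only without h1 replicate 2 or 3 or h2 replicate 1 or 3 (adjusted p at most 0.257) and ended with the Xist covariate (adjusted p = 0.0953). In h2 against h1, 2 of the 33 rose and 1 fell, beside 0.188% and 0.534% of all genes. Sox2 and Sox9, factors of progenitors and astrocytes, rose by 0.43 (adjusted p = 0.00117) and 0.51 (adjusted p = 0.00378), and the zinc finger factor Klf9 fell (-0.41, adjusted p = 0.0348). The Klf9 call was kept only without h1 replicate 1 or 2, h4 replicate 2 or 3, or WT replicate 2 (adjusted p at most 0.191). Among 32 ligands and receptors that act on the lineage, none was called in h1 by either tool (8 at an unadjusted p under 0.05). In h2, Gpr37, a receptor of oligodendrocytes, rose (0.21, adjusted p = 0.0246, at most 0.197 without h2 replicate 1 or 2 or WT replicate 1 or 2). In h4, 1 of the 32 rose and 2 fell, beside 1.64% and 2.91% of all genes. Lingo1, a receptor component that inhibits myelination, fell (-0.28, SE 0.04, adjusted p = 5.76e-05, at most 0.00176 over the leave-outs). The growth factor receptor Igf1r also fell (-0.29, adjusted p = 0.0386), and the adhesion receptor Adgrg1 rose (0.21, adjusted p = 0.0463). The Igf1r call ended without h1 replicate 1, h2 replicate 3, h4 replicate 1 or 3, or WT replicate 1 or 2 (adjusted p at most 0.218), and the Adgrg1 call was kept only without h2 replicate 2 or 3 or WT replicate 2 (adjusted p at most 0.201). Both ended with the Xist covariate (adjusted p = 0.0683 and 0.0739).

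Proliferation genes were near the limit of the data, with 3 of 12 (Aurkb, Bub1 and Ube2c) under 1 CPM in every library. Of the 11 tested, edgeR and DESeq2 called none in h1, h2 or h4 against WT, with 0, 4 and 1 at an unadjusted p under 0.05 and medians of -0.31, -0.43 and 0.03. DESeq2 gave no adjusted p for Mki67 or Top2a in h4 and so could call neither there. Mki67 averaged 4.42 ± 0.810 CPM in h1, 4.03 ± 1.07 CPM in h2, 5.41 ± 0.538 CPM in h4 and 5.59 ± 0.609 CPM in WT.

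Levels were also set against the summed level of the mature myelin genes. On this scale a gene of unchanged CPM is lower wherever that sum is higher. The 24 mature myelin genes summed to 15904 to 16350 CPM in h1, 13930 to 15058 CPM in h2, 13980 to 15052 CPM in h4 and 12414 to 14118 CPM in WT. Per 1000 CPM of that sum, Gpr17 lay between 5.46 and 6.37 in the 9 mutant libraries and between 6.91 and 8.82 in the 3 WT libraries. Cspg4 lay between 1.06 and 1.207 in mutants and between 1.208 and 1.48 in WT, and Pdgfra between 4.505 and 5.13 in mutants and between 5.11 and 5.71 in WT. Olig1, Olig2, Sox10, Myrf, Nkx2-2, Enpp6 and Bcas1 overlapped between mutants and WT on this scale. These ratios are a description. The mean of their denominator was 16102 CPM in h1, 14568 CPM in h2 and 14360 CPM in h4, above 13228 CPM in WT. Its ranges in h2 and h4 overlapped that of WT. In CPM, Gpr17 and Cspg4 both overlapped between the 9 mutant and the 3 WT libraries. How many of all genes separate mutants from WT on this scale was not computed.

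Markers of other cells that hold some of the 10 transcripts were read beside these results. Against WT, edgeR called 0.625% of all genes in h1, 0.679% in h2 and 4.55% in h4. Pericytes and smooth muscle, which express Cspg4, summed to 293 to 317 CPM over 12 genes in h1, 319 to 327 CPM in h2, 322 to 347 CPM in h4 and 303 to 340 CPM in WT, with no gene called in h1 or h2 and Myh11 and Vtn called higher in h4 (adjusted p = 0.0418 and 0.0424). Both were kept in the fits without h2 replicate 1, h2 replicate 2 or WT replicate 3, and Myh11 also without h1 replicate 1, but not in the other leave-outs or with the Xist covariate (adjusted p = 0.0854 and 0.0765). Fibroblasts of the meninges and vessels, which express Pdgfra, summed over 12 genes to 259 to 286 CPM in h1, 293 to 308 CPM in h2, 300.5 to 323.5 CPM in h4 and 264 to 296 CPM in WT. Of those 12, Slc6a13 (-0.47, adjusted p = 0.00865) and Aldh1a2 (-0.49, adjusted p = 0.0109) fell in h1, both not called without h1 replicate 2 (adjusted p = 0.13 and 0.137) or with the Xist covariate (adjusted p = 0.1 and 0.195). Ogn and Col3a1 rose in h4, Col3a1 not without h4 replicate 1 or WT replicate 1 (adjusted p at most 0.0937). Schwann cell genes, which share Sox10 and much of the myelin programme, summed to 18.1 to 24.6 CPM in h1, 14.9 to 22.4 CPM in h2, 25.6 to 33.8 CPM in h4 and 19.9 to 23.2 CPM in WT over 8 genes. Of these 8, Pmp2, Foxd3 and Dhh were under 1 CPM in every library, and none of the 5 tested was called against WT. Egr2, 1 of the 5, averaged 10.7 ± 2.41 CPM in h4, 5.49 ± 0.68 CPM in WT and 2.46 ± 1.28 CPM in h1. Cdh19 averaged 13.7 ± 0.627 CPM in h4 and 12.8 ± 2.45 CPM in WT. The higher sum in h4 is therefore not read as a level of Schwann cells. In h1 the endothelial genes Cldn5 (-0.57, adjusted p = 0.0115) and Cdh5 (-0.34, adjusted p = 0.0183) also fell, of 10 listed. The Cldn5 call ended without WT replicate 1 (adjusted p = 0.121) and that of Cdh5 without h1 replicate 2 or 3 or WT replicate 1 or 3 (adjusted p at most 0.137), and both ended with the Xist covariate (adjusted p = 0.1 and 0.234). Of 10 astrocyte genes, none was called in h1 or h2 by edgeR (4 and 5 at an unadjusted p under 0.05, and 1 and 0 called by DESeq2). In h4, 5 of these 10 rose and none fell (4 to 5 rose and 0 to 1 fell over the leave-outs). Among them were S100b (0.28, adjusted p = 8e-05), Aldh1l1 (0.28, adjusted p = 0.00123), Gfap (0.38, adjusted p = 0.00172) and Slc1a3 (0.15, adjusted p = 0.00422). Slc1a2, of the same list, went the other way, with 2419 ± 73 CPM in h4 and 2649 ± 94.9 CPM in WT. It was called lower in h4 against h1 (-0.24, adjusted p = 0.0279, kept in 7 of 12 leave-outs). The 10 astrocyte genes summed to 5774 to 6070 CPM in h1, 5553 to 5876 CPM in h2, 5653 to 5796 CPM in h4 and 5584 to 5751 CPM in WT. The part of endothelial cells and astrocytes, and that of the other cell types, in the levels of the 10 genes was not tested.

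Over the 12 libraries, the genes whose log2 CPM followed each of the 10 most closely were sought among 13702 genes. These points share library depth and genotype, and such correlations describe these libraries only. The closest of so many genes over 12 libraries reach a high r in any case, here 0.877 to 0.946 for the closest 2 of all 10 genes. For Olig1 the closest were Cldn11 and Hapln2, genes of mature myelin (Pearson r of 0.918 and 0.916, Spearman rho of 0.853 and 0.937). For Myrf they were Arhgef10 and Mobp (r of 0.923 and 0.912, rho of 0.895 and 0.881). Cldn11, Hapln2 and Mobp were, like Olig1 and Myrf, called higher in h1 against WT. None of the other 8 had a gene of these lists among its closest 2. Pdgfra was followed most closely by Ociad2 (r of 0.945) and Gpr17 by Sgsm1 (r of 0.946) and Bcl2 (r of 0.944).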

How the data were processed

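Whole-brain poly(A) RNA was measured in 12 mice. RSEM 1.2.12 and Bowtie2 2.2.0 are named in the submitters' processing notes. No genome build or annotation is given in the sources used here. The authors deposited RSEM's expected counts per gene (estimated counts, in which a read that matches several genes is shared), of which 77.7% of values above 0 were whole within 1e-09. The deposited TPM values are normalised to length and library by the authors and were used for levels between genes, as were the deposited transcript lengths. The FPKM values deposited by the authors were not used. Per the labels' protocols, the library kit keeps no strand.

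Symbols were taken by Ensembl identifier from GENCODE's GRCm38 annotation (37607 of 38924 genes, 96.6%), and promoters from RefSeq. Expected counts were rounded and tested with edgeR 4.0.16 in R 4.3.3 (quasi-likelihood, TMM factors of 0.991 to 1.01, 1 model over all 12 libraries). The low-count filter left 16493 genes and removed 22431. Adjusted p are Benjamini-Hochberg values over these 16493 genes, called under 0.05, and SE is the log2 fold change divided by the square root of F. The common biological coefficient of variation was 0.0531. CPM are counts per library total. P-values of edgeR weigh a difference between genotype means against the spread between mice within genotypes, estimated over all 12 libraries together. In each mutant that spread includes libraries of high and of low Xist, and in WT only of high Xist. The procedure was first tested on simulated counts.

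The 7 comparisons were each mutant and their mean against WT, and each pair of mutants. All 10 genes are named in every comparison. From each list, up to 4 called genes of smallest adjusted p were taken, or up to 2 of highest CPM where none was called, and the text gives part of these. The members and lists were chosen with earlier results of these data known. Lhfpl3, of the other precursor genes, was not found under that symbol. Alternatives were DESeq2 1.42.0, other size factors, no low-count filter, Xist status as a covariate, only the 2 groups compared, leaving out each library, a replicate block and, added after the data were seen, only the 7 libraries with high Xist.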

Additional observations from a re-analysis of the deposited data

Results flagged for a closer look

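Differences between 2 mutants were tested directly, and 6 of them passed for the 10 genes, 2 in h2 against h1 and 4 in h4 against h1. Of all genes, 0.722% and 4.64% were called in these comparisons. Each of the 6 calls ended in some of the fits that left out 1 library. Olig2 differed by a log2 fold change of -0.29 in h2 against h1 and of -0.27 in h4 against h1, and its log2 fold changes against WT were 0.00 in h2, 0.02 in h4 and 0.29 in h1. Pdgfra differed by -0.18 in h2 against h1 and by -0.14 in h4 against h1, although no mutant was called against WT, and the h4 difference was not called by DESeq2 (adjusted p = 0.0689). Olig1 differed by -0.22 and Myrf by -0.17, both in h4 against h1. Background strain differed between these groups as well, and cannot be told apart from the allele.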

How the results depend on the processing

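Of 217 alternative values of the 12 calls among the 10 genes, 139 stayed past the threshold, 78 lost it and 0 changed sign. The SE was 0.03 to 0.17 per gene, and differences of several SE also went uncalled. An example is Nkx2-2 in h2 against h1 (0.59, SE 0.16, edgeR adjusted p = 0.0975). A gene that was not called is therefore not shown to be unchanged. The causes of the changes below were not tested. The number of all genes called in h1, in h2 and in the mean of the mutants against WT was 103, 112 and 181. Without the low-count filter it was 236, 288 and 373, and in h2 against h1 and h4 against h2 it was then 290 and 844 in place of 119 and 531. With Xist as a covariate the first 3 counts were 31, 69 and 65. Among the 7 libraries with high Xist, where h1 and h2 are left with 1 library each, assumed to vary like the other groups, they were 16, 39 and 76, and 23 in h2 against h1, 116 in h4 against h1 and 127 in h4 against h2. In h2 against h1 DESeq2 called 183 genes, a fit of only those 2 groups 193, and the fit with a replicate block 204.

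Of the 10 genes, the numbers called were 0 in h1 with the Xist covariate, 0 in h1, h2, h2 against h1 and h4 against h1 among the libraries with high Xist, 2 in h2, 1 in h4 and 2 in the mean with DESeq2, 1 in h4 with only the 2 groups, and 2 in the mean and 4 in h2 against h1 without the filter. The replicate block called 4 in h2 against h1 (Olig1, Olig2, Pdgfra and Nkx2-2). Whether the numbers in the sample titles pair h1 and h2 libraries is not known. Deviations from the group mean of same-numbered libraries correlated by -0.141, -0.105 and 0.0249, and no h1 library matched its own number best. With 3 libraries per group, some of them differing in Xist status from their namesake, these values cannot settle it.

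Leaving out 1 library at a time gave 22 to 166 genes in h1, 18 to 348 in h2, 230 to 1111 in h4 and 18 to 505 in the mean against WT, and 44 to 160 in h2 against h1, 313 to 896 in h4 against h1 and 251 to 619 in h4 against h2. Of the 10 genes it gave 0 to 4 in h1, 0 to 2 in h2, 0 to 1 in h4, 0 to 3 in the mean, 0 to 3 in h2 against h1, 0 to 4 in h4 against h1 and 0 in h4 against h2. In all, 39 alternative log2 fold changes changed sign, each of a gene that was not called. Over the leave-outs these were Sox10 (-0.05 to 0.11) and Cspg4 (-0.02 to 0.05) in h1, Olig2 (-0.05 to 0.06) and Enpp6 (-0.01 to 0.19) in h2, Olig2 (-0.04 to 0.07), Myrf (-0.00035 to 0.10) and Nkx2-2 (-0.0011 to 0.32) in h4, and Nkx2-2 in the mean (-0.05 to 0.26). Between mutants they were Bcas1 in h2 against h1 (-0.0014 to 0.03), Enpp6 in h4 against h1 (-0.15 to 0.03), and Olig1 (-0.09 to 0.01), Olig2 (-0.03 to 0.07), Cspg4 (-0.14 to 0.0015) and Gpr17 (-0.01 to 0.14) in h4 against h2. Olig2 in h2 was -0.0021 with other size factors and with DESeq2, -0.0017 with only the 2 groups, -0.03 with the Xist covariate and -0.08 among libraries with high Xist. With that covariate Cspg4 was 0.01 in h2 and 0.00048 in the mean. Among libraries with high Xist, Nkx2-2 was 0.09 in h1, Sox10 -0.02 and Enpp6 0.004 in h4 against h1, and Olig1 0.04 in h4 against h2.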
